A study of Mus musculus with 14 samples.

Results

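Slit2, Slit3, Robo1, Robo2, Robo4, Srgap1 and Srgap2 were followed across the epicardial and subepicardial layer of fetal mouse hearts. These 7 genes were chosen by symbol from the 15894 genes of the deposited table: secreted Slit ligands, their Robo receptors and the Srgap proteins that act downstream of Robo. All 7 were listed and passed the filter on low values in every comparison, which asked for a value of 1 or more in 3 or more of the libraries fitted. Srgap3 was the only other gene of these families with a row in the table.

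RNA came from layers dissected at E16.5 from the ventral or the dorsal side of the ventricles, with the layers of 2 hearts pooled per library and RNA from at least 3 litters. The groups were female ventral (n = 3 libraries, numbered 1 to 3), female dorsal (n = 3, numbers 1 to 3), male ventral (n = 4, numbers 4 to 7) and male dorsal (n = 3, numbers 4 to 6). A further male library with number 7 is called dorsal in its title and ventral in its tissue field, and it entered no main test. All 14 libraries carry the label Tbx18Cre, a Cre driven from the Tbx18 gene, which is active in the epicardium and its precursors. Their titles mark them as controls (ctrol), and the paper calls the hearts of its regional and sex comparisons wild type. No group without the Tbx18Cre label was analysed here, no treatment was applied, and no further allele is named. Whether the sexes were processed together is not stated in the sources used here. The titles of male and female libraries follow different naming schemes, and some of the S numbers in them occur in both sexes. Sex and processing thus cannot be told apart.

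Slit proteins are large secreted glycoproteins that bind the Ig domains of Robo receptors on neighbouring cells. They are best known for repelling axons at the midline of the nervous system. In the heart, Slit and Robo act in chamber, septum and vessel development, and Robo4 is the receptor of endothelial cells. Bound Robo recruits Srgap proteins, GTPase-activating proteins that switch off small GTPases and so reshape the actin cytoskeleton.

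Slit2 lies on chromosome 5 (47983138 to 48307733, plus strand) and Slit3 on chromosome 11 (35121224 to 35708507, plus strand). Robo1 (chromosome 16, 72308306 to 73046095, plus strand) and Robo2 (chromosome 16, 73891839 to 74411825, minus strand) are neighbours, and Robo4 lies on chromosome 9 (37401897 to 37415115, plus strand). Srgap1 is on chromosome 10 (121780991 to 122047315, minus strand) and Srgap2 on chromosome 1 (131285251 to 131527352, minus strand), all by GENCODE M21 on GRCm38. At most 0.51% of the 60-base windows of a member's transcripts recurred in another gene's transcripts, so reads of this length could be assigned to the members with little ambiguity. Slit2 overlaps the listed genes Gm42537 and Gm43426, and Srgap2 overlaps Gm37954.

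The promoters of the ligands and of Srgap1 are shown because these genes were the members called higher ventrally in females. Each is the 250 bases before the RefSeq start (GRCm38.p6), 5′ to 3′, with motif matches on either strand in capitals. The TATA box was searched as TATAAA. The GC box was searched as GGGCGG.
Slit2 promoter, chr5:47982905-47983154, plus strand: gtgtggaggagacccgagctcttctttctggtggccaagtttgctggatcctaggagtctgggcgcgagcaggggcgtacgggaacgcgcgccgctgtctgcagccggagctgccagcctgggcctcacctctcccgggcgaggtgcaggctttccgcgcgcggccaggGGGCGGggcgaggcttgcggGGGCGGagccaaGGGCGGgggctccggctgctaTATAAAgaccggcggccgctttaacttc
Slit3 promoter, chr11:35121206-35121455, plus strand: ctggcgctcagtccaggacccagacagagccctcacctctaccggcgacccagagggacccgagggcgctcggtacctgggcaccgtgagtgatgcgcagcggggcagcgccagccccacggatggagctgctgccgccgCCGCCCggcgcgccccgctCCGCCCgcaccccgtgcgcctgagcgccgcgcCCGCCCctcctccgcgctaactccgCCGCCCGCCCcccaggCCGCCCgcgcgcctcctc
Srgap1 promoter, chr10:122047316-122047565, minus strand: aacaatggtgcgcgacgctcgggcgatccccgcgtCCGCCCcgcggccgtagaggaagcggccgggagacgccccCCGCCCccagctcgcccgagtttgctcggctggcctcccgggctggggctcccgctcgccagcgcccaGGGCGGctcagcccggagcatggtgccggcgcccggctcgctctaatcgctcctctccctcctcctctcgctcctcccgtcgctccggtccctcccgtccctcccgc
The Slit2 window holds TATAAA starting 28 bases before the start, a motif found on either strand in 12.4% of 32851 promoter windows of this length. It also holds 3 GC boxes. Slit3 holds 6 GC boxes, of which those starting 34 and 30 bases before the start overlap, and Srgap1 holds 3. The GENCODE starts given above lie within the Slit2 and Slit3 windows. By the GENCODE positions, most of the Slit3 window, with its 6 GC boxes, falls inside the gene. The last bases of the Slit2 window do so too. The GC box occurred in 32.7% of all windows. GC content was 69.6% for Slit2, 78.8% for Slit3 and 76.4% for Srgap1, against a median of 52.4% over all windows. CCAAT, found in 33.8% of windows, CANNTG (E-box, 66.2%) and GGAATG (MCAT box, 12.6%) were not among the letters of these 3 windows on either strand.

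An intron of each ligand gene holds a copy of the same microRNA on the gene's own strand, Mir218-1 within Slit2 (chr5:48223966-48223986) and Mir218-2 within Slit3 (chr11:35616840-35616860). MiR-218 is known to target Robo receptors, so its mature RefSeq sequence is shown with the seed, bases 2 to 8, in capitals. The next 3 lines are the matches to that seed in the 3′ ends of the Robo1 and Robo2 transcripts (longest protein-coding transcript), with AAGCACA in capitals.
mmu-miR-218-5p: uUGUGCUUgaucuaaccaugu
Robo1: ctttttttttttggttttaaAAGCACAatc
Robo2, first match: ctgcgattttatttggtgatAAGCACAaat
Robo2, second match: tgtgtagtcacggcagacccAAGCACAgct
The same letters occurred at 2 places in the 3′ end of Slit2 and at 1 in that of Srgap2, and not in those of Slit3, Robo4 or Srgap1. Of 13697 listed genes with an annotated 3′ end, 15.5% held AAGCACA, and of those with at least 2000 bases 32.7% did. These are matches of letters only, and mature microRNAs were not measured.

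Read totals on the listed genes ran from 13.9 M to 25.2 M per library (median 20.4 M). The values are normalized CPM, the share of a library's reads scaled to a common total, and the floor, set at 3 reads, came to 0.135 to 0.253 of these units. Epicardial genes were present in every library: Wt1 ranged from 26.4 to 216 normalized CPM and Upk3b from 90.2 to 2170. The layers were mixed tissue, since the 10 ventricular cardiomyocyte markers summed to between 13600 and 37500 normalized CPM. The 10 epicardial markers summed to 355 to 637 in female dorsal libraries and 1770 to 2820 in female ventral ones, while the male ranges overlapped (1600 to 4210 dorsally, 2030 to 5820 ventrally).

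A pair of libraries stood apart by marker sums. In female dorsal library 1 the 6 atrial markers summed to 12500 normalized CPM, against 478 to 2000 in the other 13 libraries. In male ventral library 7 the 6 blood endothelial markers summed to 55.8, against 281 to 603 elsewhere. It also had the highest erythroid sum (291), the highest epicardial sum (5820) and the lowest ventricular cardiomyocyte sum (13600). Results of the members that rest on these libraries are given with and without them. The tests of pathway and marker genes are given only with them.

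**Figure D1:**
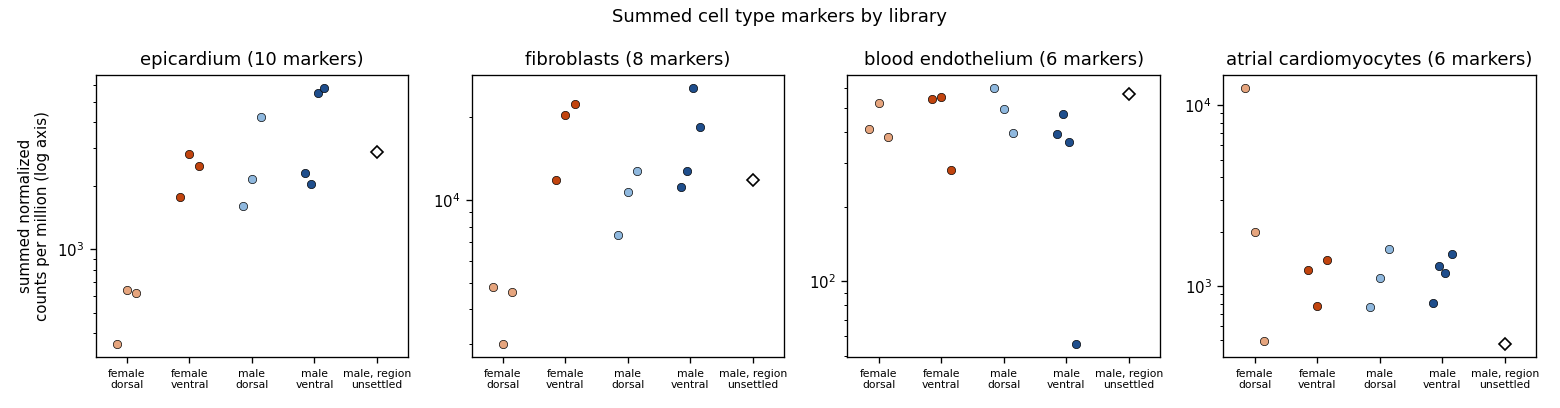
Summed markers of 4 cell types, in normalized CPM on log axes, with a point per library by sex and region and an open diamond for the male library of unsettled region. Female dorsal libraries have the lowest epicardial and fibroblast sums, female dorsal library 1 the highest atrial sum, and male ventral library 7 the lowest endothelial sum.

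Each gene was tested with limma on log2(value + 1), with p-values adjusted over all genes tested, and a gene was called at an adjusted p under 0.05. The p-values measure the spread between libraries, each made from a pool of 2 hearts. The main fits took libraries with the same number as independent. Changes are ventral minus dorsal unless stated, and the change of a gene with low values is understated on this scale.

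Slit2 was higher on the ventral side in females. Female dorsal libraries gave 17.7, 14.9 and 29.2 normalized CPM for numbers 1, 2 and 3, and female ventral libraries 39.9, 58.3 and 59.2. Every ventral library was above every dorsal one. The means were 20.6 ± 7.55 (SD, n = 3) dorsally and 52.5 ± 10.9 (SD, n = 3) ventrally, a ratio of 2.55, and the log2 change on the log2(value + 1) scale was 1.34 ± 0.26 (SE; adjusted p = 0.00558). After a trend fitted to gene GC content and length was taken out, the change was 0.85 and still called (adjusted p = 0.038).

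In males, Slit2 measured 23.6, 40.1 and 37.6 normalized CPM in the dorsal libraries and 40.8, 49.9, 76.0 and 62.1 in the ventral ones. These groups did not overlap either, although the lowest ventral and the highest dorsal library were close. The ratio of means was 1.69, and the log2 change of 0.74 ± 0.25 (SE) did not pass the test over all genes (adjusted p = 0.302; unadjusted p = 0.0143). No gene passed in males: the share called was 0% of 14917 genes in limma, and edgeR on recovered reads also called 0, while 2083 genes had an unadjusted p under 0.05. With libraries paired by number 76 genes were called in males, 38 with the GC and length trend also removed, and 12 without male dorsal library 6, but no member was among them. Male ventral library 7 has no partner of settled region, so it adds nothing to the regional change in the paired fits. Leaving it out without pairing called 0 genes.

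Slit3 showed the largest female difference among the members. Dorsal libraries held 4.87, 1.93 and 5.56 normalized CPM and ventral ones 13, 42.7 and 29.1, again without overlap but with a wide spread on the ventral side. The mean was 4.12 ± 1.93 (SD, n = 3) dorsally and 28.3 ± 14.9 (SD, n = 3) ventrally, a ratio of 6.85, and the log2 change was 2.45 ± 0.45 (SE; adjusted p = 0.00432). Number 2 gave the widest gap, 35 reads dorsally and 590 ventrally.

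Male Slit3 values were 7.63, 15.4 and 22.6 normalized CPM dorsally and 17.8, 16.1, 32.6 and 34.3 ventrally. The groups overlapped, and the log2 change of 0.73 ± 0.38 (SE) was not called (adjusted p = 0.411). Number 5 was nearly level between the sides, with a ventral to dorsal ratio of 1.05.

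Over both sexes, with sex as a covariate, the log2 change was 1.02 ± 0.21 (SE; adjusted p = 0.00782) for Slit2 and 1.53 ± 0.38 (SE; adjusted p = 0.0158) for Slit3. Both ligands were higher ventrally in 6 of 6 numbers, by 0.31 to 1.90 for Slit2 and 0.06 to 3.90 for Slit3 on the log2 scale. Without female dorsal library 1 and male ventral library 7 together, an alternative added after the data were seen, Slit2 stayed called (0.94, adjusted p = 0.03) and Slit3 did not (1.46, adjusted p = 0.0534).

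**Figure D2:**
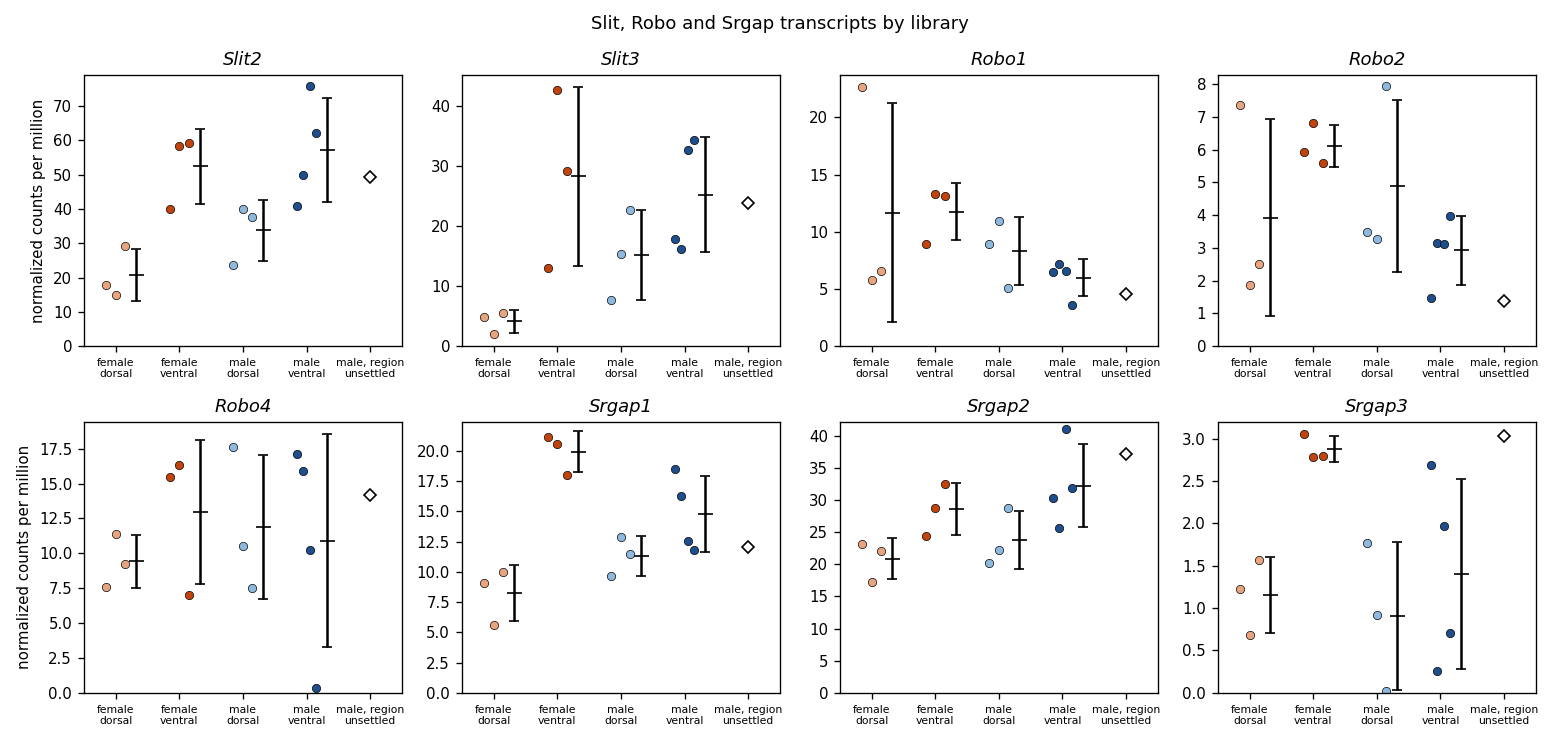
Normalized CPM of the 7 members and Srgap3 in every library, by sex and region; bars are the mean and SD of each group, and the open diamond is the male library of unsettled region. Female dorsal libraries lie below all female ventral ones for Slit2, Slit3, Srgap1, Srgap2 and Srgap3, and Robo4 is at 0.362 in male ventral library 7.

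The cells that make Slits in this layer cannot be read from bulk RNA, in which fewer cells of a type and less RNA per cell cannot be told apart. Among the 10 epicardial markers, 9 were called higher ventrally in females, with a median log2 change of 2.17 for the list against 0.01 for all genes tested. Fibroblast markers were called in 6 of 8 (collagens and the like; sums of 2990 to 4840 dorsally and 11800 to 22400 ventrally), lymphatic markers in 4 of 6 and macrophage markers in 5 of 6. Ventricular cardiomyocyte markers were called in 2 of 10 and blood endothelial markers in 0 of 6 by limma, where 0 of 6 also had an unadjusted p under 0.05. Of the smooth muscle and pericyte markers 2 of 7 were higher ventrally and 3 lower, of the atrial markers 1 of 6 was lower, of the erythroid markers 1 of 3 was lower, and of 2 tested Schwann cell and neuron markers none was called. Of all genes tested in females, 14.5% were called higher on the ventral side and 13.3% on the dorsal side, so counts such as 2 of 10 or 1 of 6 are near that share. In males none of these markers was called. The part of these differences in the Slit results, and in those of Srgap1 and the pathway genes given further on, was not tested.

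The Slit2 to Slit3 ratio, taken per kilobase of the longest transcript, was 1.90 to 4.06 in female dorsal libraries and 0.717 to 1.61 in female ventral ones. Male libraries gave 0.874 to 1.63 dorsally and 0.949 to 1.63 ventrally. Female dorsal layers thus had the lowest Slit3 relative to Slit2, a description without a test.

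None of the 3 receptors was called with all libraries in the fit, and whether their changes differed from those of the ligands was not tested. Robo1, the broadly expressed receptor, measured 22.7, 5.74 and 6.56 normalized CPM in female dorsal libraries 1 to 3 and 8.90, 13.3 and 13.1 in the female ventral ones. The high dorsal value belongs to the library with high atrial markers. The log2 change was 0.24 ± 0.45 (SE; adjusted p = 0.716), and without that library it was 0.82 (adjusted p = 0.0897). In males, dorsal values were 8.97, 10.9 and 5.05 and ventral values 6.52, 7.15, 6.60 and 3.59, with a log2 change of -0.40 ± 0.34 (SE; adjusted p = 0.614).

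Robo2, which acts beside Robo1 in axon guidance, had fewer reads than Robo1 and Robo4 in most libraries, though not in male dorsal library 6 or male ventral library 7. These read counts are not corrected for transcript length. Female dorsal libraries gave 7.37, 1.88 and 2.52 normalized CPM and ventral ones 5.92, 6.83 and 5.60. Library 1 was again the high dorsal sample, and the groups overlapped through it alone. The log2 change was 0.69 ± 0.41 (SE; adjusted p = 0.23) with it and 1.16 (adjusted p = 0.04) without it, which is the only setting that called a Robo gene. The part of atrial tissue in this difference was not tested.

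Male Robo2 lay at 3.50, 3.26 and 7.94 normalized CPM dorsally and 1.46, 3.15, 3.13 and 3.98 ventrally. The ventral side was not higher in any of the numbers 4, 5 and 6. The log2 change was -0.55 ± 0.39 (SE; adjusted p = 0.534), and the male minus the female change was -1.24 (95% interval -2.49 to 0.01; adjusted p = 0.329). The Robo1 to Robo2 ratio per kilobase ranged from 0.722 to 5.08 over the 13 libraries of settled region.

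Robo4, the endothelial receptor, measured 7.60, 11.4 and 9.26 normalized CPM in female dorsal libraries and 15.5, 16.3 and 7.01 in ventral ones. The sides overlapped, and the log2 change was 0.35 ± 0.34 (SE; adjusted p = 0.462). Male dorsal libraries gave 17.6, 10.5 and 7.52, and male ventral libraries 17.1, 15.9, 10.2 and 0.362.

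The last male ventral value rests on 8 reads, against 256 to 395 in the other male ventral libraries. In that library Cdh5, the endothelial cadherin, was at 11 normalized CPM against 76.5 to 108 in the others of the group, Tie1 at 2.70 against 27.0 to 42.9, and Cldn5, a tight junction protein, at 4.19 against 57.5 to 83.2. Robo4 was the only gene below 1 in this library and at least 5 in all 13 others. The male log2 change of Robo4 was -0.56 ± 0.79 (SE; adjusted p = 0.767) with the library and 0.30 (adjusted p = 0.795) without it, so its sign depended on this library.

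Srgap1, a GTPase-activating protein of the Robo pathway, was also higher ventrally in females. Dorsal libraries gave 9.12, 5.64 and 10 normalized CPM and ventral libraries 21.2, 20.6 and 18. The groups were well apart, with means of 8.25 ± 2.31 (SD, n = 3) and 19.9 ± 1.72 (SD, n = 3), a ratio of 2.42 and a log2 change of 1.21 ± 0.26 (SE; adjusted p = 0.00864). In males the values were 9.63, 12.9 and 11.5 dorsally and 18.5, 16.3, 12.6 and 11.8 ventrally, which overlapped (log2 change 0.34 ± 0.25 SE; adjusted p = 0.548). Over both sexes it was 0.74 ± 0.21 (SE; adjusted p = 0.0231), and the call was lost without female ventral library 2 (adjusted p = 0.0583), without female dorsal library 2 (adjusted p = 0.0546) and with the pairing and the removal of that GC and length trend together (adjusted p = 0.0562).

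Srgap2, which shapes membrane protrusions and dendritic spines, differed less. Female dorsal libraries held 23.2, 17.2 and 22.1 normalized CPM and ventral ones 24.4, 28.8 and 32.5, without overlap but with a ratio of only 1.37. The log2 change was 0.44 ± 0.20 (SE; adjusted p = 0.127). Male values were 20.2, 22.2 and 28.8 dorsally and 30.3, 25.7, 41.0 and 31.9 ventrally. Over both sexes the change of 0.43 ± 0.14 (SE) was just past the threshold (adjusted p = 0.0486), with ventral higher in 6 of 6 numbers, and it was not called with the pairing by number (adjusted p = 0.0674) or in most other alternatives.

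Counted together, 3 of the 7 members were called higher ventrally in females and 0 higher dorsally, while 14.5% of all genes tested were called higher ventrally, 13.3% higher dorsally and 27.8% in either direction. Every female ventral library was above every dorsal one for 4 of 7 members, beside 23.2% of all genes, and the reverse held for 0 of 7, beside 21.6%. In males these counts were 1 of 7 (6.18% of all genes) and 0 of 7 (7.82%). Over both sexes 4 of 7 were called higher ventrally, against 9.8% of all genes, with 9.06% higher dorsally and 18.9% in either direction. The members were named with earlier results of these data known, so these counts describe the list and test nothing.

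**Figure D3:**
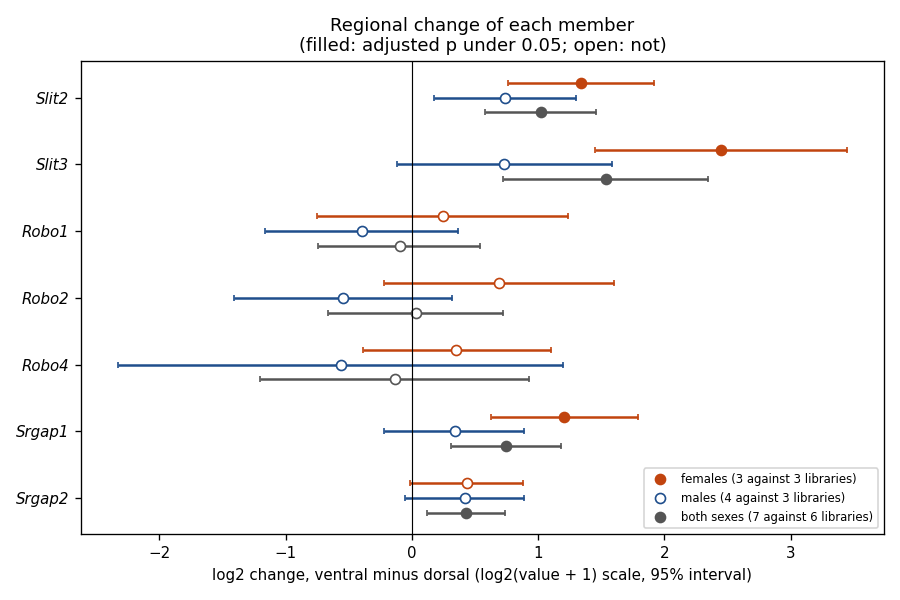
Log2 change, ventral minus dorsal, of the 7 members in females, males and both sexes, with 95% intervals on the log2(value + 1) scale; filled points passed an adjusted p of 0.05. Slit2, Slit3 and Srgap1 are filled in females and over both sexes, Srgap2 only over both sexes, and no point is filled in males or for a Robo gene.

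The regional change was set against sex in a fit of all 4 groups. For 0 of 7 members did the male change differ from the female one at the threshold, where 2.73% of all genes did. The fitted difference was below 0 for all 7 members, beside 8090 of 15772 genes tested. Its sign reversed in 9 of 25 alternatives for Srgap2 and in 1 of 25 for Robo4. The difference was -1.71 for Slit3 (95% interval -3.09 to -0.34; adjusted p = 0.205), -0.87 for Srgap1 (-1.62 to -0.12; adjusted p = 0.236) and -0.60 for Slit2 (-1.43 to 0.23; adjusted p = 0.496), so a difference between the sexes was neither called nor narrowed to a small size. These values share libraries with the comparisons within each sex.

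Between the sexes, with region as a covariate, 0 of 7 members were called, beside 10.9% of all genes. Male minus female log2 changes were 0.39 for Slit2, 0.71 for Slit3, -0.59 for Robo1, -0.32 for Robo2, -0.25 for Robo4, -0.02 for Srgap1 and 0.17 for Srgap2, with adjusted p between 0.234 and 0.965. Dorsal Slit2 and Slit3 were higher in males by mean (33.8 and 15.2 normalized CPM) than in females (20.6 and 4.12), and ventral means were closer (57.2 and 25.2 against 52.5 and 28.3). This dorsal contrast was described and not tested on its own.

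Levels of different members were ranked only per kilobase of transcript. With the longest transcript as length, the medians over 13 libraries ordered the members as Slit2, Srgap2, Slit3, Robo4, Srgap1, Robo1 and Robo2, and Srgap3 was lowest. With the union of exons the order was Slit3, Srgap2, Robo4, Slit2, Srgap1, Robo1, Robo2 and Srgap3, so the place of Slit2 depended on which transcripts are counted. Under both lengths the upper 4 exchanged places between libraries: Srgap2 was above Slit3 in 7 of 13 libraries by the longest transcript. Srgap1 was above Robo1 in 11 or 12 of 13 libraries and Robo1 above Robo2 in 12 or 11, by the longest transcript and the exon union in that order.

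The 3 genes with the profile most similar to each member were sought by Pearson's r of log2(value + 1) over all 14 libraries among 15869 other genes. These are the highest values of a large search over libraries that share region and sex effects, so they carry no test. Slit2 was closest to Snhg8 (r = 0.97), Megf6 (0.97) and Pf4 (0.96), and Slit3 to Zbtb7c (0.98), Ptprf (0.98), a receptor phosphatase, and Npnt (0.97), the matrix protein nephronectin. With the 4 group means taken off, over 13 libraries, these stayed at 0.90 to 0.97. Robo4 was closest to Tie1 (0.95), Cldn5 (0.95) and Cdh5 (0.94), all endothelial genes. Without female dorsal library 1 and male ventral library 7, a choice made after seeing the data, these fell to 0.87, 0.73 and 0.60 over 12 libraries, so the high values for Cldn5 and Cdh5 rest in part on the libraries that stand apart.

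Robo1 was closest to Epha4 (0.88), an ephrin receptor, Rgs12 (0.86) and Chsy1 (0.85), a chondroitin synthase, and without the same libraries these were 0.71, 0.75 and 0.61. Robo2 had the weakest matches, Slc25a24 (0.76), Plcd4 (0.76) and Ptpn21 (0.75). Srgap1 matched Piezo2 (0.95), a mechanically gated channel, and Smo (0.92), the Hedgehog transducer, whose r fell to 0.64 without group means. Srgap2 matched Rassf2 (0.91), Bmp4 (0.91) and Thbs1 (0.90). Slit2 and Slit3 themselves correlated at 0.94 over 14 libraries, and at 0.83 without group means over 13.

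The wider pathway list held 39 genes, of which 36 were listed and 35 tested in females; Slit1, Robo3 and Dcc have no row in the table analysed here. In females the ventral side was called higher for 9 of 35 (14.5% of all genes) and the dorsal side for 5 of 35 (13.3% of all genes), the latter near the share of all genes, and the median log2 change was 0.12 against 0.01 for all genes. In males 0 were called. Over both sexes 7 were higher ventrally and 2 dorsally, beside 9.8% and 9.06% of all genes. Every female ventral library was above every dorsal one for 11 of 36 listed genes, where 23.2% of all genes tested were so placed, and the reverse held for 6 of 36, where 21.6% were.

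Among co-receptors and binding partners, 4 of 10 tested were called higher ventrally in females and 0 lower, beside 14.5% and 13.3% of all genes, and the fitted change was below 0 for another 4. Sdc4, a heparan sulfate proteoglycan of the syndecan family, went from 40.0, 18.3 and 31.9 normalized CPM dorsally to 110, 148 and 191 ventrally. All 3 ventral libraries were above all dorsal ones (log2 change 2.31 ± 0.28 SE; adjusted p = 0.000813). Flrt2, a membrane protein that binds guidance receptors, rose by 1.60 on the log2 scale (adjusted p = 0.00298), Sdc3, another syndecan, by 1.40 (adjusted p = 0.00334) and Dag1, dystroglycan, which binds Slits, by 0.52 (adjusted p = 0.0203). Nell2, another Robo ligand, was at the floor in female dorsal libraries 1 and 2. It measured 0.0231 to 2.07 dorsally and 1.02 to 10.7 ventrally and was not called (adjusted p = 0.0951).

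Of the GTPase-activating and exchange proteins, Sos1 and Sos2, exchange factors for Ras and Rac, rose ventrally in females by 0.99 and 1.13 on the log2 scale (adjusted p = 0.0167 and 0.016). Srgap3 measured 0.681 to 1.57 normalized CPM dorsally and 2.78 to 3.05 ventrally in females, with a log2 change of 0.86 (adjusted p = 0.0669). Myo9b, a GTPase-activating myosin that binds Robo1, had a change of 0.72 (adjusted p = 0.0618). Arhgap39, the remaining gene of this group, had a change the other way (-0.93) and was not called (adjusted p = 0.119).

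The cytoplasmic effectors split. Pxn, the focal adhesion scaffold paxillin, rose ventrally in females by 1.11 (adjusted p = 0.00397), Abl1, the kinase, by 1.05 (adjusted p = 0.0042) and Pak2, a Rac effector kinase, by 0.43 (adjusted p = 0.0368). Cap2, a cyclase-associated actin regulator abundant in muscle, was lower ventrally, with means of 342 normalized CPM dorsally and 110 ventrally (log2 change -1.67; adjusted p = 0.000947), and Nck2, an adaptor, likewise (-1.31; adjusted p = 0.0128). Evl, an Ena/VASP protein, was called over both sexes only, just under the threshold (0.52; adjusted p = 0.047). Other processing settings were not followed for single pathway genes. In receptor turnover, Usp33, a deubiquitinase that acts on Robo1, was lower ventrally in females (-0.91; adjusted p = 0.00951), as was Ndfip2, a Nedd4-family adaptor (-1.25; adjusted p = 0.0015). Of the 60-base windows of Usp33 transcripts, 20.32% also occur in transcripts of other genes, so its reads are less surely its own.

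Rac1, the GTPase at the end of this route, differed in opposite directions by sex. Female dorsal libraries gave 341, 379 and 418 normalized CPM and female ventral ones 126, 149 and 173. Male dorsal libraries gave 38.4, 36.7 and 47.2 and male ventral ones 108, 115, 92.1 and 71.9, so dorsal was above ventral in females and below it in males, without overlap in either. The female log2 change was -1.35 (adjusted p = 0.000667), the male one 1.21 (adjusted p = 0.195; unadjusted p = 7.1e-05), and the male minus the female change 2.56 (adjusted p = 9.92e-05).

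Shared sequence limits this value, since 50.07% of the 60-base windows of Rac1 transcripts also occur in Daglb, a lipase gene on the opposite strand that overlaps it. Daglb, looked up after these values were seen, measured 11.6 to 18.3 normalized CPM in female dorsal libraries and 37.1 to 51.7 in female ventral ones, and 34.4 to 53.8 and 31.3 to 81.7 in male dorsal and ventral ones. Whether reads were counted by strand is not stated, so reads in the shared stretch cannot be assigned to either gene with certainty. The other GTPases were not called: Cdc42 was 509 to 585 dorsally and 441 to 505 ventrally in females, with a log2 change of -0.17 (adjusted p = 0.402), and Rhoa lay at 323 to 410 in the 6 female libraries.

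In the joint fit of both sexes the calls were Sdc4 (1.58; adjusted p = 0.022), Sos2 (0.95; adjusted p = 0.00793), Sdc3 (0.88; adjusted p = 0.0158), Pxn (0.78; adjusted p = 0.00894), Sos1 (0.67; adjusted p = 0.0221), Abl1 (0.57; adjusted p = 0.0337) and Evl on the ventral side. Cap2 (-1.15; adjusted p = 0.00685) and Nck2 (-0.94; adjusted p = 0.0203) were lower there. Male Sdc4 ranged from 32.9 to 191 normalized CPM dorsally and from 70.7 to 290 ventrally, so the sides overlapped. Between the sexes 5 pathway genes were called, 2 higher and 3 lower in males, where 10.9% of all genes were called in either direction. Rac1 (male minus female log2 change -1.82; adjusted p = 0.00348) and Ndfip2 (-1.19; adjusted p = 0.00334) had the largest of these changes. Evl was also lower in males by limma (male minus female log2 change -1.10; adjusted p = 0.000861). In the same fit Sdc1, another syndecan, was higher (0.50; adjusted p = 0.0396), as was Vasp, an actin regulator (0.44; adjusted p = 0.0381). This fit took libraries with the same number as independent. With values averaged within numbers, and without region as a covariate, calls over all genes between the sexes fell from 1726 to 944. Number 7 then held a ventral library only. Single pathway genes were not followed in the averaged fit.

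**Figure D4:**
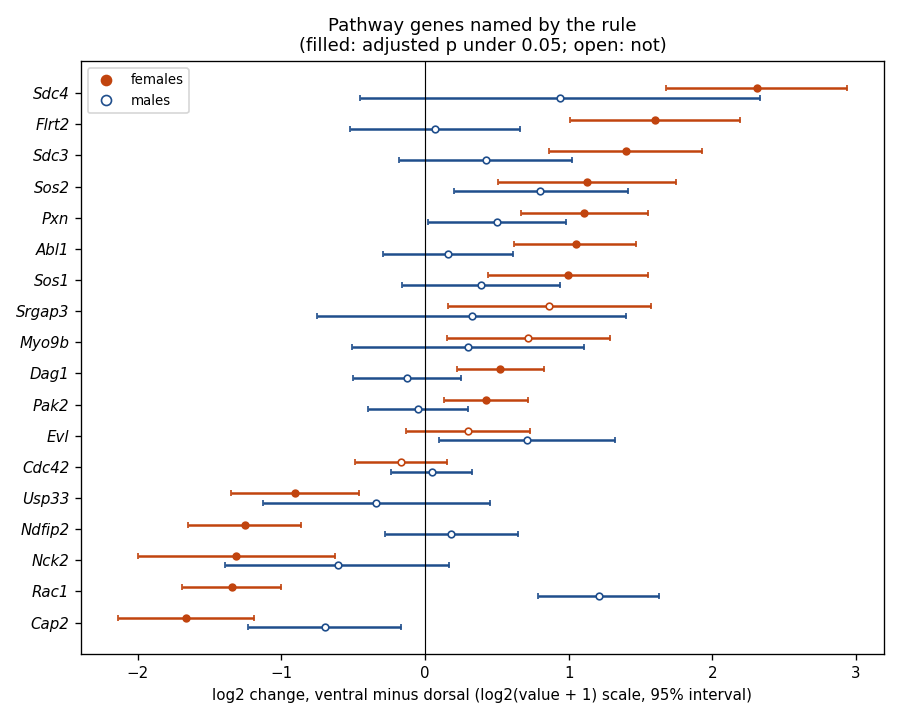
Log2 change, ventral minus dorsal, of the pathway genes named by the rule, in females and males, with 95% intervals; filled points passed an adjusted p of 0.05. Sdc4 is highest and Cap2 lowest in females, and Rac1 lies on opposite sides of 0 in the sexes.

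**Figure D5:**
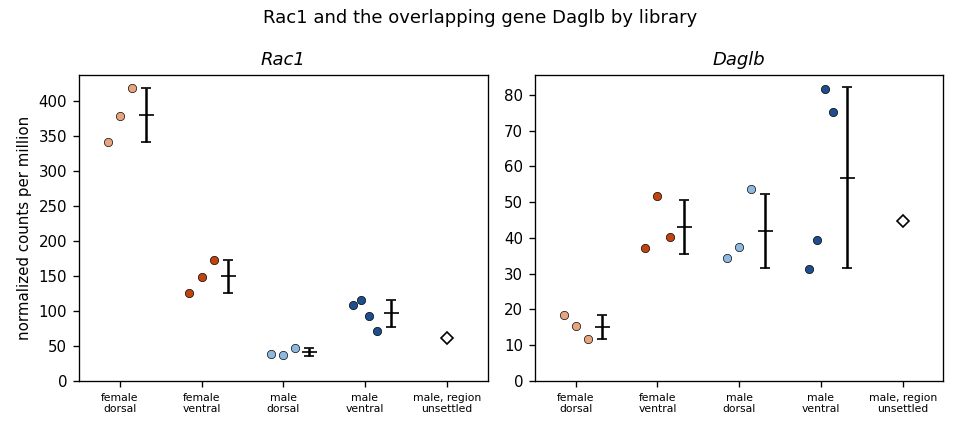
Normalized CPM of Rac1 and of Daglb, which overlaps it on the opposite strand, in every library; bars are the mean and SD of each group and the open diamond is the male library of unsettled region. Rac1 is highest in female dorsal libraries, at 341 to 418, where Daglb is lowest, at 11.6 to 18.3.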

How the data were processed

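RNA sequencing was done on 14 pooled layers (2 hearts and 40 ng of RNA per library, poly(A) selection, 60-base single reads). Per the study's methods and the submitters' processing notes, the authors trimmed reads with Cutadapt, quantified them with RSEM (1.3.1 in the processing notes) on the GRCm38 transcriptome, used limma for normalization, and dropped genes that did not reach 1 CPM in 3 or more samples. Whether counting used strand is not given in the sources used here. The deposited signal values equalled a whole number of reads plus 0.5, divided by an effective library size, for 100.0% of 222516 values within 0.02 reads. The 3-read floor covers counting error only.

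Values were tested as log2(value + 1) with limma 3.58.1 (lmFit and eBayes with trend, R 4.3.3) for genes with at least 1 in at least 3 libraries, with Benjamini-Hochberg adjustment. The 5 comparisons were ventral against dorsal among female libraries, the same among male libraries, the same with the sexes joined and sex as covariate, male against female with region as covariate, and the interaction. Libraries with the same number deviated together from their group means (correlations 0.169 to 0.427 over 15772 genes for the 6 numbers), so the numbers were taken to pair libraries, and the fit with this block was an alternative. Male ventral library 7 has no partner of settled region and adds nothing to the regional change in that fit. Other alternatives were the pseudocount (0.1), filters, median of ratios and quantile scaling, eBayes without trend, edgeR 4.0.16 on recovered reads, a GC and length trend removed, each library left out, and the library of unsettled region taken as either side. The fits were tested on simulated data. Lengths, positions and overlaps came from GENCODE M21, and promoters and microRNAs from RefSeq. Of 15894 IDs, 15888 matched GENCODE.

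The members and the pathway and marker lists were chosen with earlier results of these data known. The text names the members, other listed genes of the same families, pathway genes called in a regional comparison or without overlap between sides in females, and the 3 genes most like each member, although not every gene this rule gives is reported here. Genes named outside this rule (Wt1, Upk3b, Nell2, Sdc1, Vasp, Rhoa, Arhgap39, Daglb, Cap1, Ppt1) were chosen after values were seen.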

Additional observations from a re-analysis of the deposited data

Results flagged for a closer look

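Rac1 and Ndfip2 had regional changes that differed between the sexes by the interaction test in limma. For Rac1 the male minus the female log2 change was 2.56 ± 0.25 (SE; adjusted p = 9.92e-05), and all 3 numbered pairs of each sex went the way of their group. For Ndfip2 it was 1.44 ± 0.27 (SE; adjusted p = 0.00799): female dorsal libraries held 77.6 to 90.1 normalized CPM and female ventral ones 27.2 to 40.3, while male dorsal libraries held 17.6 to 23.0 and male ventral ones 19.4 to 29.3. The interaction fit took libraries with the same number as independent. Sex cannot be told apart from processing here.

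Pak2 reached 77.2 normalized CPM in male ventral library 5, with the other 3 libraries of the group at 61.1 to 63.7. The gap was 0.834 of the group's range, just past the Dixon limit for 4 samples. Among 25 genes looked at in this way, chance flags about 1 in 20 groups.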

How the results depend on the processing

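The alternatives were followed for the members and for counts over all genes, and not for single pathway or marker genes. In females Slit2, Slit3 and Srgap1 kept their direction and call in 16 of 16 alternatives, with log2 changes of 0.85 to 1.61, 2.09 to 2.91 and 0.99 to 1.35. Over both sexes Slit2 was called in 26 of 26, Slit3 was lost in 1, Srgap1 in 3 and Srgap2 in 18. There the number of members called moved from 4 to 2 with both libraries that stand apart left out (chosen after seeing the data) and with the replicate block plus GC and length removal. It ran from 2 to 4 when single libraries were left out, with 2 without female ventral library 2 or female dorsal library 2.

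With the replicate block alone, the paired fit called 3 members over both sexes, losing Srgap2, and changed no other member's call. It turned Robo4 to 0.30 in males and 0.33 over both sexes, and Robo1 to 0.02 over both. Male ventral library 7, without a partner, adds nothing to the regional change in this fit. These values are thus not separate from those found by leaving that library out. By averaging within numbers, without region as a covariate, Srgap1 between sexes became 0.02. Block plus GC and length removal gave Robo1 -0.13 in females, Robo4 0.20 in males and 0.17 over both sexes, and Robo2 -0.20 over both. None of the reversed values given here was called.

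GC and length removal alone reversed Robo1 in females (-0.13), Robo2 over both sexes (-0.16), Srgap1 between sexes (0.05) and Srgap2 in the interaction (0.14). EdgeR reversed Robo1 in females (-0.02), Robo2 (-0.11) and Robo4 (0.15) over both sexes, and Robo4 between sexes (0.02). Quantile scaling reversed Robo2 over both sexes (-0.20) and the Srgap2 interaction (0.02), as median of ratios did for the latter (0.02). With the unsettled library as ventral, Robo2 over both sexes was -0.07 and the Srgap2 interaction 0.03, and with it as dorsal Srgap1 between sexes was 0.02. Without both libraries that stand apart, Robo1 (0.25) and Robo4 (0.27) over both sexes, Robo4 (0.16) and Srgap1 (0.05) between sexes, and the Robo4 interaction (0.08) reversed. The cause was not tested.

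Leaving out single libraries gave -0.09 to 0.82 for Robo1 in females and -0.94 to 0.30 for Robo4 in males. Over both sexes it gave -0.27 to 0.10 for Robo1, -0.16 to 0.27 for Robo2 and -0.29 to 0.33 for Robo4. Between sexes it gave -0.42 to 0.22 for Robo4 and -0.16 to 0.06 for Srgap1, and for the Srgap2 interaction -0.14 to 0.12.

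Over all genes, female calls went from 4007 to 2158 without ventral library 2 and 2291 without dorsal library 2. Male calls went from 0 to 76 with the block, 38 with block plus GC and length removal, and 12 without dorsal library 6. Calls over both sexes went from 2974 to 1557, 1739 and 1429 without female ventral 2, female ventral 3 and female dorsal 2, and 1424 without both libraries that stand apart. GC and length removal moved the split there to 1045 higher and 1795 lower. Calls between sexes went from 1726 to 944 by averaging without the region covariate, and interaction calls from 431 to 260 without female dorsal 2. Robo1 or Robo2 had no value where a mean of at least 10 was required. Low counts limit Robo2 and Srgap3 most.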

Other observations

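The male library of unsettled region gave 49.3 normalized CPM for Slit2, above the 3 male dorsal libraries (23.6 to 40.1) and within the male ventral range. Slit3 was at 23.8, Robo1 at 4.58, Robo2 at 1.37, Robo4 at 14.2, Srgap1 at 12.1 and Srgap2 at 37.1. Its Robo2 value was the lowest of the 14 libraries. Its region was not inferred from these values.

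Cap1, an actin regulator of the Robo pathway list, was at 13.6 and 13.1 normalized CPM in female dorsal and ventral library 2, at 23.8 in male ventral library 7 and at 13.4 in the unsettled library 7. The other 10 libraries lay between 99.0 and 220. The low libraries were thus both of number 2 and both of number 7. Ppt1, which shares 1.91% of the 60-base windows of Cap1, lay between 61.7 and 108 in all 14.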
